A study of Mus musculus with 12 samples.

Results

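The genes that make, sense, move and export cholesterol were examined in the medial prefrontal cortex (mPFC) of mice after chronic social defeat. The list held 35 genes of the pathway, picked by their role in it with earlier results of these data known. A gene was measured where a probe set of the array (a group of probes summarized to 1 value) was annotated to that gene alone, and the brightest such probe set stood for it. This gave 32 members of the 17656 named genes above noise, while Acat2, Soat1 and Nr1h2 were not analysed here.

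The series held 12 Affymetrix Mouse Gene 1.0 ST arrays, each from the mPFC of a separate adult male C57BL/6 mouse labelled wild type. The 6 mice of the homecage group (HC) were kept in group housing. The 6 mice of the chronic social defeat group (CSD) each lived for 14 days behind a perforated divider in the cage of a dominant male CD-1 mouse and met it for 5 min per day with the divider lifted. All mice took a light/dark test and a social interaction test, and the CSD mice alone were selected by them, so the groups differed in housing and selection as well as in defeat. Mice were perfused with saline 24 h after the last defeat, and the mPFC was cut out along the forceps minor, a white matter tract. Exact ages were not given in the sources used here. Values are log2 intensities made with RMA, an array normalization, and all differences are CSD minus HC on that scale. A value shows a probe set's signal, which differs between probe sets for technical reasons, so levels were compared between groups and never between genes.

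The brain makes nearly all of its own cholesterol, because lipoproteins of the blood do not pass the blood-brain barrier. Synthesis runs from acetyl-CoA through mevalonate and the isoprenoids to squalene, is closed into the ring of lanosterol, and ends in a series of trimming steps. When sterol is scarce, SCAP carries the transcription factor SREBP-2 (gene Srebf2) from the endoplasmic reticulum to the Golgi for activation, and INSIG proteins hold it back when sterol is plentiful. Myelin, the membrane that oligodendrocytes wrap around axons, is the largest cholesterol store of the brain, and neurons clear surplus sterol by hydroxylation through CYP46A1.

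Promoters of genes under SREBP-2 often carry a sterol regulatory element next to a CCAAT box, the site of the factor NF-Y. Both were searched in the RefSeq promoter windows (build GRCm38.p6, 250 bases before to 50 after a start), as the letters CACCCCAC for the element core and CCAAT for the box, on both strands. Of the 32 measured members 26 had at least 1 window, 34 windows in all, some of them overlapping windows of 1 gene. The element core was found in 1 member window (2.94%) and in 2.87% of all 32851 windows. The CCAAT box was found in 23 member windows (67.6%), those of 22 members, and in 37.4% of all windows. These letter matches describe the windows and do not show binding. Only these exact letters were counted, so a window without them is not shown to lack the element.

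The window of Hmgcs1 is shown because it was the only member window with the element core, at position -136 from the start. It is joined by those of Insig1 and Nsdhl, picked after their values were seen as members with small p-values below. The windows lie at chr13:119690101-119690400, chr5:28071162-28071461 and chrX:72918271-72918570, all on the plus strand, and the capitals mark CACCCCAC, CCAAT or its reverse complement ATTGG.
Hmgcs1: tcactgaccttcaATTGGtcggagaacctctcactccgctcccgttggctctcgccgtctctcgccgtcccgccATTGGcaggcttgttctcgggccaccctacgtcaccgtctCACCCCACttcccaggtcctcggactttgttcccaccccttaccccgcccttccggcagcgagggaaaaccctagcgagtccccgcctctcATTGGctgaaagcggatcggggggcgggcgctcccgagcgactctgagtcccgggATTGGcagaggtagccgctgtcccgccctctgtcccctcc
Insig1: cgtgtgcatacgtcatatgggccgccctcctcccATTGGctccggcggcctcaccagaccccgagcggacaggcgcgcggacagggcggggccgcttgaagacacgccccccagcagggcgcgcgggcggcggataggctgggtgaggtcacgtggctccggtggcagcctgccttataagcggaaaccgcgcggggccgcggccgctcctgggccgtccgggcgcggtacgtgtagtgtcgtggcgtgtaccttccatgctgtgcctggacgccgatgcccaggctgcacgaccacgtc
Nsdhl: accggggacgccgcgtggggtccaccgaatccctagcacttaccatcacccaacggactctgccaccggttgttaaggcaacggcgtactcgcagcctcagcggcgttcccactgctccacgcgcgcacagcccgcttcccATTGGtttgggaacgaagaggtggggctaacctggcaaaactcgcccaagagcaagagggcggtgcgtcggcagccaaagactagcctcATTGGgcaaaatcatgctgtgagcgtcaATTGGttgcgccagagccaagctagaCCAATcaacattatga
The Hmgcs1 window held 4 CCAAT boxes, some before and some after the element core, the Nsdhl window 4, and the Insig1 window 1. Among the other members with a lower CSD mean at a small p-value, the windows of Idi1, Lss and Tm7sf2 held the box, as did 1 of 3 windows of Dhcr7, that of Abca2 did not, and Sqle, Npc1 and Stard4 had no window. Members without a small p-value held boxes too, such as 5 for Mvk and 3 each for Hsd17b7, Msmo1, Ggps1 and a window of Insig2.

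HC replicates 2 and 6 stood apart from the other arrays. Their median correlations with the arrays of their own group were 0.992 and 0.991, against 0.994 to 0.996 for the others. HC replicate 2 had the highest median over all probe sets (7.69) and HC replicate 6 the lowest (7.5). Together they carried the highest value of 27 of the 32 members (84.4%) and of 60.9% of all named genes, so the counts over the members and over the other lists are also given without them. Every listed cell type had markers above noise. The 7 measured markers of cortical excitatory neurons had mean log2 values of 10.95 to 11.14 on HC and 10.94 to 11.07 on CSD arrays, and the summed linear signals of the 4 measured markers of striatal neurons, 1999 to 2486 on HC and 1893 to 2584 on CSD arrays, overlapped.

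Cholesterol genes had slightly lower values after CSD along most of the pathway. The mean was lower in CSD for 28 of the 32 members (87.5%), against 57.1% of all named genes. After median centring it was lower for 30 members and 64.8% of all genes, and after quantile normalization for 27 members and 56.4% of all genes. No member passed an adjusted p of 0.05 with a fold change of 1.2 in limma, and neither did any other named gene (0% of 17656). Over all probe sets kept, limma and the test named in the methods each called 0, and 2516 and 2214 had an unadjusted p under 0.05. At an unadjusted limma p under 0.05, 11 members (34.4%) were lower in CSD, against a background of 6.52% of named genes, and 0 were higher, against 1.89%. For no member did all CSD arrays lie below the whole HC range (background 0.935%) or above it (0.0793%). The median difference was -0.08 over the members and -0.01 over all named genes. The 11 lower members differed by 1.08- to 1.14-fold, so every one of them was below the 1.2-fold limit. Without HC replicates 2 and 6, the mean was lower for 25 members (78.1%) and 41.5% of all genes, and the median was -0.04 over the members and 0.01 over all genes. On these arrays 4 members (Hmgcs1, Lss, Nsdhl and Insig1) were lower at an unadjusted p under 0.05, 0 were higher, and for 0 the groups did not overlap, when 3.40% of named genes were lower at that limit, 5.11% higher, and 1.13% and 1.32% had all CSD arrays below or above the HC range.

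**Figure D1:**
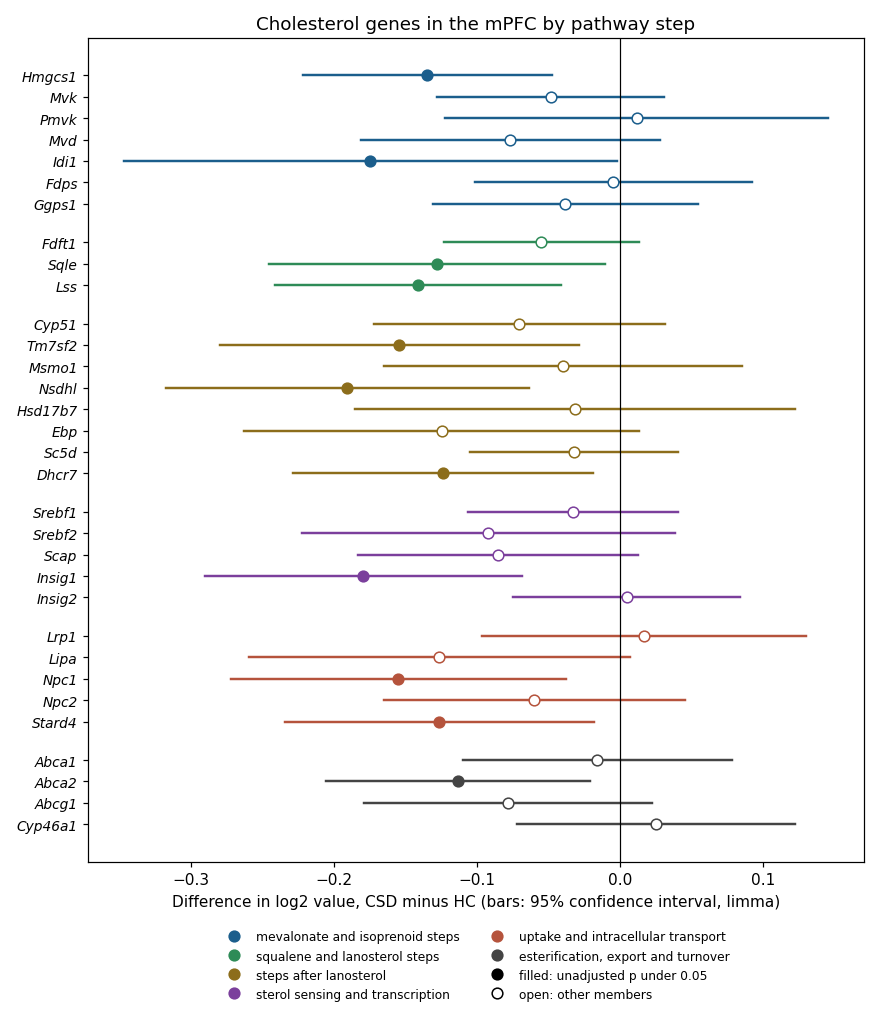
Difference between group means on the log2 scale (CSD minus HC, horizontal axis) for the 32 measured members, ordered by pathway step, with 95% confidence intervals from limma (6 arrays per group). Filled points mark the 11 members with an unadjusted p under 0.05, all left of 0, and 28 of 32 points lie left of 0 (30 after median centring, 27 after quantile normalization).

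In the mevalonate and isoprenoid steps, 2 of 7 measured members were lower at an unadjusted p under 0.05, and the step's median was -0.05. Hmgcs1 encodes the synthase that makes HMG-CoA, the substrate for mevalonate. Its log2 values on HC replicates 1 to 6 were 11.33, 11.37, 11.35, 11.44, 11.29 and 11.45, and on CSD replicates 2, 6, 7, 8, 9 and 10 they were 11.21, 11.35, 11.23, 11.24, 11.15 and 11.25. All CSD arrays except replicate 6 lay below the lowest HC array. The difference was -0.13 (SE 0.04, 95% confidence interval -0.22 to -0.05), with an unadjusted limma p of 0.00540, an adjusted p of 0.330 and an exact permutation p of 0.00649. Without HC replicates 2 and 6 it was -0.12 and still had an unadjusted p under 0.05.

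Idi1 encodes the isomerase that interconverts the 5-carbon isoprenoid units. The HC arrays read 10.10, 9.92, 10.09, 10.15, 9.71 and 10.30 in replicate order, and the CSD arrays 9.84, 9.87, 9.89, 9.88, 9.92 and 9.81. The CSD values were close together, while HC replicate 5 was the lowest of all 12 arrays and HC replicate 6 the highest, so no CSD array was below every HC array. The difference of -0.17 (SE 0.08) had a limma p of 0.0477 (adjusted 0.584) and an exact permutation p of 0.0563, and a second probe set of the gene gave -0.15. It no longer had a limma p under 0.05 when any 1 of HC replicates 1, 3, 4 and 6 or of the CSD replicates was left out.

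The other enzymes of these steps did not pass. Mvk, Pmvk and Mvd act on mevalonate in turn, and their differences were -0.05, 0.01 and -0.08, with exact permutation p-values of 0.160, 0.883 and 0.130. For Pmvk the sign turned to minus after median centring. Fdps, which joins isoprenoid units to farnesyl diphosphate, ranged from 10.07 to 10.27 in HC and from 10.08 to 10.26 in CSD, a difference of 0.00 to 2 decimals with a 95% confidence interval of -0.10 to 0.09 that turned its sign with quantile normalization. Ggps1, which feeds the branch towards protein prenylation, differed by -0.04 (exact permutation p = 0.361).

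All 3 measured genes of the squalene and lanosterol steps had a lower mean in CSD, 2 of them at an unadjusted p under 0.05, with a median of -0.13. Lss, the cyclase that folds oxidosqualene into lanosterol, read 9.02, 9.15, 8.95, 9.07, 8.91 and 9.17 on the HC arrays and 8.90, 8.93, 8.93, 8.87, 8.90 and 8.90 on the CSD arrays. The CSD values spanned a narrow band, and 4 of 6 lay below the lowest HC array. Lss differed by -0.14 (SE 0.05, limma p = 0.00913, adjusted p = 0.402, exact permutation p = 0.00866), and by -0.08, still with an unadjusted p under 0.05, without HC replicates 2 and 6. Sqle encodes squalene epoxidase, which adds the oxygen that cyclization needs. Its values were 10.05, 10.19, 10.13, 10.33, 10.16 and 10.33 in HC and 9.95, 10.13, 10.08, 10.03, 10.08 and 10.14 in CSD, with HC replicates 4 and 6 highest and CSD replicate 2 lowest. Sqle differed by -0.13 (SE 0.05, limma p = 0.0349, adjusted p = 0.551, exact permutation p = 0.0411) and lost the unadjusted call without HC replicate 4 or 6, or without CSD replicate 2, 7 or 8. Fdft1, the squalene synthase that commits isoprenoids to sterols, had the same sign on both of its probe sets, -0.06 on each, and did not pass in limma (adjusted p = 0.703), while the exact permutation p of the brighter one was 0.0368.

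After lanosterol all 8 measured enzymes had a lower mean in CSD and 3 had an unadjusted p under 0.05, with a median of -0.10. Nsdhl, which takes part in removing the methyl groups at carbon 4 of the ring, had the most negative difference of the 32 members. It read 10.16, 10.24, 10.10, 10.27, 10.01 and 10.29 in HC and 9.90, 10.07, 10.05, 10.03, 9.83 and 10.04 in CSD. CSD replicates 2 and 9 were below every HC array, and HC replicate 5 was below the remaining 4. The difference was -0.19 (SE 0.06, 95% confidence interval -0.32 to -0.06, limma p = 0.00640, adjusted p = 0.355, exact permutation p = 0.0152), and it was -0.15 without HC replicates 2 and 6, still with an unadjusted p under 0.05.

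Tm7sf2 encodes a sterol reductase of the ring's carbon 14. On the HC arrays it had values of 8.56, 8.78, 8.56, 8.66, 8.51 and 8.71, and on the CSD arrays 8.44, 8.59, 8.45, 8.57, 8.49 and 8.32. CSD replicates 6 and 8 lay within the HC range and the other 4 below it, a difference of -0.15 (SE 0.06, limma p = 0.0197, adjusted p = 0.467, exact permutation p = 0.0281). Without HC replicates 2 and 6 it was -0.09 and no longer had an unadjusted p under 0.05. Dhcr7, the reductase that turns 7-dehydrocholesterol into cholesterol, had values of 9.03, 9.12, 9.02, 8.98, 8.89 and 9.09 in HC and 8.80, 8.99, 8.92, 9.0, 8.85 and 8.85 in CSD. CSD replicates 2, 9 and 10 were below the lowest HC array. Dhcr7 differed by -0.12 (SE 0.05, limma p = 0.0240, adjusted p = 0.498, exact permutation p = 0.0303), and the unadjusted call was lost without HC replicate 2, CSD replicate 2 or CSD replicate 10.

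The remaining 5 enzymes after lanosterol did not have an unadjusted p under 0.05. Ebp, an isomerase that shifts a double bond of the ring, had a difference of the same size as Dhcr7, -0.12 (exact permutation p = 0.0931), with HC arrays from 8.86 to 9.24 and CSD arrays from 8.82 to 9.08. Cyp51, the lanosterol demethylase, differed by -0.07 (exact permutation p = 0.152), Msmo1, which oxidizes the methyl groups at carbon 4, by -0.04 (p = 0.513), and Sc5d, a desaturase of the ring, by -0.03 (p = 0.238). Hsd17b7, a ketoreductase of the same complex as Nsdhl, differed by -0.03 (exact permutation p = 0.684). Without HC replicates 2 and 6 it differed by 0.05, and HC replicate 6 held its highest value (9.81).

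**Figure D2:**
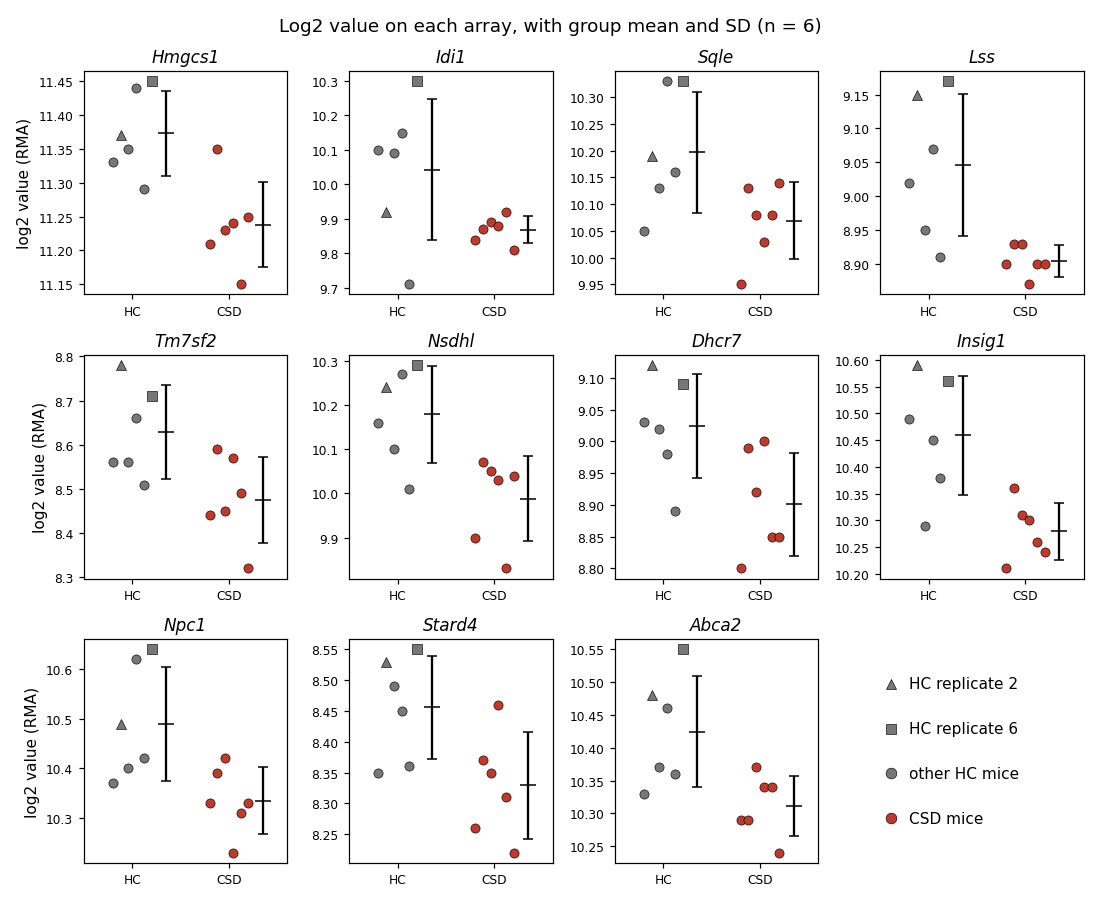
Log2 value on each array of the 11 members with an unadjusted limma p under 0.05, with the group mean and SD beside the points (n = 6 per group, a separate vertical scale for each gene). HC replicates 2 and 6 have their own symbols. In each panel at least 1 CSD array reaches into the HC range, and for Idi1 all 6 do.

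Among the genes that sense sterol, 1 of 5 measured members had an unadjusted p under 0.05. Insig1, itself a target of SREBP-2 and a brake on its activation, had the smallest limma p of all members. It read 10.49, 10.59, 10.29, 10.45, 10.38 and 10.56 on the HC arrays and 10.21, 10.36, 10.31, 10.30, 10.26 and 10.24 on the CSD arrays. HC replicate 3 lay among the CSD values and the other HC arrays above all of them. Insig1 differed by -0.18 (SE 0.05, 95% confidence interval -0.29 to -0.07, limma p = 0.00401, adjusted p = 0.313, exact permutation p = 0.00866), and by -0.12, still with an unadjusted p under 0.05, without HC replicates 2 and 6.

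Srebf2, the gene of the transcription factor itself, read 10.52, 10.66, 10.53, 10.59, 10.51 and 10.77 in HC and 10.40, 10.54, 10.54, 10.69, 10.44 and 10.42 in CSD. CSD replicate 8 was second only to HC replicate 6, and 3 CSD arrays were below every HC array. The difference of -0.09 (95% confidence interval -0.22 to 0.04) did not pass, with a limma p of 0.150 and an exact permutation p of 0.173. It was -0.03 without HC replicates 2 and 6. Scap, the escort of SREBP-2, differed by -0.09 (exact permutation p = 0.0649), and Srebf1, whose product drives mainly fatty acid synthesis, by -0.03 (p = 0.249). Insig2, the second INSIG gene, differed by 0.00 to 2 decimals (95% confidence interval -0.07 to 0.08), with a sign that turned after median centring.

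Of the 5 measured members for uptake and intracellular transport, 2 were lower at an unadjusted p under 0.05, with a median of -0.13. Npc1, a membrane protein that lets cholesterol leave the lysosome, had HC values of 10.37, 10.49, 10.40, 10.62, 10.42 and 10.64 and CSD values of 10.33, 10.39, 10.42, 10.23, 10.31 and 10.33. HC replicates 4 and 6 were highest and 4 CSD arrays lay below the HC range. Npc1 differed by -0.16 (SE 0.05, limma p = 0.0135, adjusted p = 0.446, exact permutation p = 0.0152), and by -0.12 without HC replicates 2 and 6, no longer with an unadjusted p under 0.05. Stard4, a carrier that moves sterol between membranes, had HC values of 8.35, 8.53, 8.49, 8.45, 8.36 and 8.55 and CSD values of 8.26, 8.37, 8.35, 8.46, 8.31 and 8.22. HC replicates 1, 4 and 5 and CSD replicates 6 and 8 lay in the overlap of the groups. Its difference of -0.13 (SE 0.05, limma p = 0.0250, adjusted p = 0.507, exact permutation p = 0.0325) lost the unadjusted call without HC replicate 2, HC replicate 6, CSD replicate 2 or CSD replicate 10.

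Lipa, the lysosomal lipase that frees cholesterol from its esters, had a difference of the same size, -0.13, with an exact permutation p of 0.0758. Its HC arrays ranged from 8.97 to 9.25 and its CSD arrays from 8.84 to 9.12. Npc2, the soluble partner of Npc1, differed by -0.06 (exact permutation p = 0.260), and Lrp1, a receptor that takes up lipoproteins, by 0.02 (p = 0.768, 95% confidence interval -0.10 to 0.13).

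For esterification, export and turnover 4 members were measured and 1 had an unadjusted p under 0.05. Abca2, a lipid transporter found mainly in oligodendrocytes, read 10.33, 10.48, 10.37, 10.46, 10.36 and 10.55 in HC and 10.29, 10.29, 10.37, 10.34, 10.34 and 10.24 in CSD. CSD replicates 2, 6 and 10 were below all HC arrays and the other CSD arrays within the lower part of the HC range. Abca2 differed by -0.11 (SE 0.04, limma p = 0.0199, adjusted p = 0.468, exact permutation p = 0.0216), and by -0.07 without HC replicates 2 and 6, no longer with an unadjusted p under 0.05. The exporters that load lipoproteins, Abca1 and Abcg1, differed by -0.02 and -0.08 (exact permutation p = 0.695 and 0.121). Cyp46a1, the hydroxylase of neurons, differed by 0.03 (exact permutation p = 0.587, 95% confidence interval -0.07 to 0.12), with 11.46 to 11.71 on HC and 11.51 to 11.64 on CSD arrays.

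Leaving out any single array gave 7 to 14 members lower at an unadjusted p under 0.05, with 0 higher, when 4.87% to 8.10% of all named genes were lower and 1.07% to 5.49% higher. The 7 members that were lower each time were Hmgcs1, Lss, Tm7sf2, Nsdhl, Insig1, Npc1 and Abca2. The fewest, 7, were left without CSD replicate 2, which held the lowest value of 8 of the 32 members. CSD replicate 10 held the lowest value of 7 members, and HC replicates 2 and 6 the highest of 11 and 16. Of all named genes, HC replicate 2 held the highest value of 40.7% and HC replicate 6 of 20.1%. The shares of all genes with their lowest value on each array are not given here. Weights estimated for each array were 0.259 for HC replicate 2 and 0.397 for HC replicate 6, against 0.898 to 1.88 for the others. With these weights 9 members were lower at an unadjusted p under 0.05 and 0 higher, when 5.78% of all named genes were lower and 4.53% higher.

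The spread between mice was larger in HC than in CSD for most genes on the array, members included. The SD was larger in HC for 26 of the 32 members (81.2%) and for 73.3% of all named genes. The median SD of the members was 0.0898 in HC and 0.0666 in CSD, and without HC replicates 2 and 6 it was 0.0660 in HC, when the SD was larger in HC for 18 of 32 members and 8086 of 17656 named genes.

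**Figure D3:**
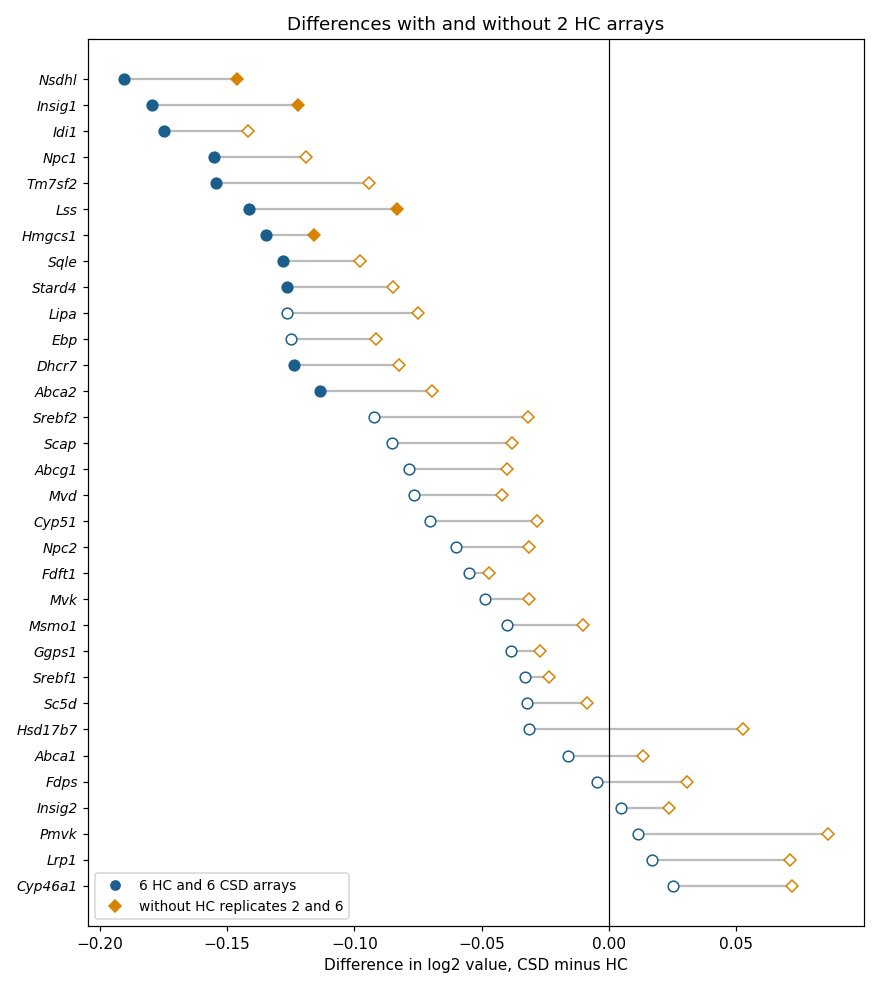
Difference between group means on the log2 scale (CSD minus HC, horizontal axis) of each of the 32 members over all 12 arrays (circles) and without HC replicates 2 and 6 (diamonds). Filled symbols have an unadjusted limma p under 0.05, 11 with all arrays and 4 without these 2. Every diamond lies to the right of its circle, and 25 of 32 diamonds lie below 0.

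The other genes of the pathway were taken from a list of 43, of which 36 were measured. The mean was lower in CSD for 28 of them (77.8%, against 57.1% of all named genes), with a median of -0.04. At an unadjusted p under 0.05, 5 were lower (13.9%, against 6.52%) and 1 was higher (against 1.89%). Without HC replicates 2 and 6, the mean was lower for 18 of the 36 (50%, against 41.5% of all named genes). On these arrays 3 were lower at that limit (8.33%, against 3.40%) and 1 higher (2.78%, against 5.11%). Pltp, a transfer protein that moves phospholipid between lipoproteins, differed by -0.33 (SE 0.08, limma adjusted p = 0.188), from a mean of 9.80 to 9.47. Tmem97, a sterol-responsive membrane protein that binds NPC1, differed by -0.25 (SE 0.06, limma adjusted p = 0.188), from 9.73 to 9.48. For both genes, 5 of 6 CSD arrays were below the lowest HC array (exact permutation p = 0.00433). The other 3 lower genes, named after their values were seen, were Acly at -0.13 (exact permutation p = 0.0260), which makes cytosolic acetyl-CoA, Osbp at -0.11 (p = 0.0195), which exchanges sterol between endoplasmic reticulum and Golgi, and Erlin2 at -0.11 (p = 0.00649), a cholesterol-binding protein of the endoplasmic reticulum. The only one higher at that limit was Nus1, a subunit of the enzyme for dolichol synthesis, at 0.08 (limma adjusted p = 0.571, exact permutation p = 0.0303). Ch25h, which makes 25-hydroxycholesterol, had a higher CSD mean by 0.12 (exact permutation p = 0.0866).

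Markers of cell types were set beside these values, since in bulk tissue fewer cells of a type and less RNA per cell cannot be told apart. All 9 measured markers of mature oligodendrocytes were lower in CSD at an unadjusted p under 0.05, and for 6 of them no CSD array reached the HC range, and both counts were the same without HC replicates 2 and 6. Their median difference was -0.58, and their summed linear signal was 10554 to 15078 on HC and 7312 to 10257 on CSD arrays. The 8 astrocyte markers, of which 1 was lower at that limit, had overlapping sums of 25137 to 27095 on HC and 25587 to 26185 on CSD arrays. Of the other markers measured at that limit, 1 of 5 was lower for oligodendrocyte precursors, 1 of 6 for microglia, 1 of 6 for endothelial cells, 1 of 4 for striatal neurons, and 0 of 7 and 0 of 6 for excitatory and inhibitory neurons. Among all named genes, 6.52% were lower at that limit and 0.935% lay wholly below the HC range. With HC replicates 2 and 6 left out, this was 1 of 6 for endothelial cells and 1 of 4 for striatal neurons, and 0 for astrocytes and the other 4 types, while 1 precursor and 1 microglial marker were higher. Among all named genes on these arrays, 3.40% were lower, 5.11% higher and 1.13% wholly below the HC range.

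Array by array, the synthesis enzymes and the oligodendrocyte markers did not keep the same order. The mean deviation of the 18 synthesis enzymes from their average over all arrays was 0.01, 0.11, 0.01, 0.08, -0.08 and 0.13 on HC replicates 1 to 6, and -0.10, -0.01, -0.03, -0.02, -0.06 and -0.04 on CSD replicates 2, 6, 7, 8, 9 and 10. The mean deviation of the 9 oligodendrocyte markers on the same arrays was 0.04, -0.01, 0.25, 0.59, 0.40 and 0.58 in HC and -0.25, -0.04, -0.11, -0.44, -0.41 and -0.59 in CSD. Both lists were above 0 on HC replicates 1, 3, 4 and 6, with replicates 4 and 6 high for both, and below 0 on all CSD arrays. HC replicate 5 was high for the markers and low for the enzymes. HC replicate 2 was the lowest HC array for the markers and among the highest for the enzymes. It also held the highest value of 40.7% of all named genes. Its deviation was 0.20 for endothelial, 0.18 for microglial, 0.10 for astrocyte and 0.01 for inhibitory neuron markers, so a high value there was not particular to the enzymes. CSD replicate 2 was the lowest array for the enzymes only. The part of oligodendrocyte RNA in the members' difference was not tested.

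**Figure D4:**
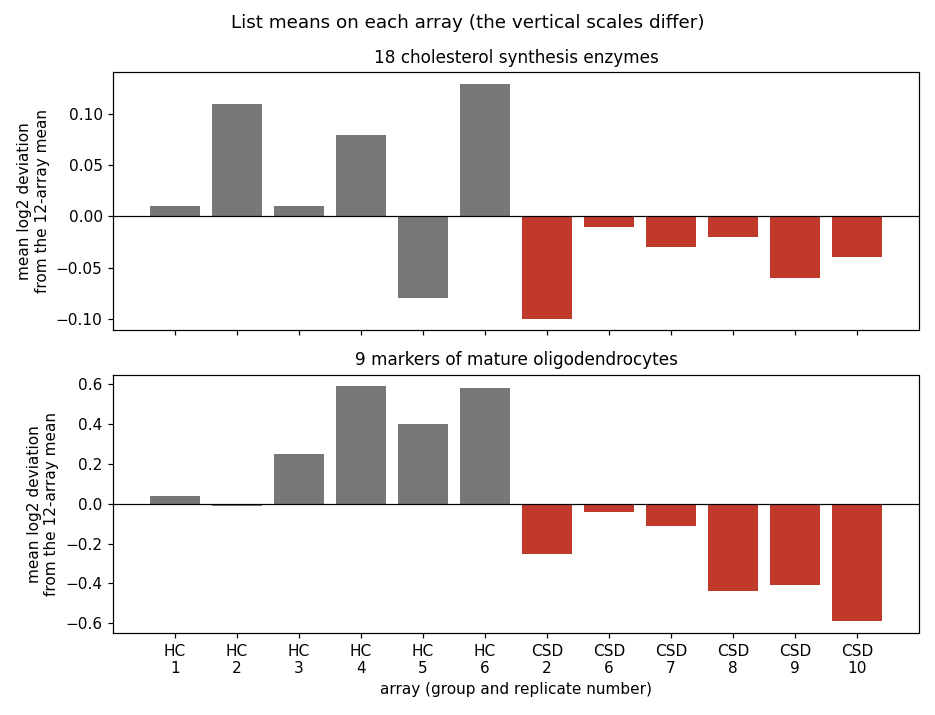
Mean log2 deviation from the average of all 12 arrays (vertical axes, with different scales) for the 18 measured cholesterol synthesis enzymes (top) and 9 markers of mature oligodendrocytes (bottom), 1 bar per array, HC in grey and CSD in red. All CSD bars are below 0 in both panels, and HC replicate 5 is at -0.08 for the enzymes and at 0.40 for the markers.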

How the data were processed

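The authors extracted total RNA of the mPFC, hybridized 200 ng per mouse and normalized the arrays with RMA in the Affymetrix Expression Console (versions not given in the sources used here), and the deposited values are on the log2 scale. The table covered 35556 probe sets on 12 arrays. Arrays have no read depth, and their number limits the precision.

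Following the study's procedure, a probe set needed at least 1 value above system noise (29838 did), and lower values were set to the noise. Since no noise level was stated, it was taken as the 20th percentile of the whole table, 5.75, and none of the members' values was raised. CSD was compared with HC in limma 3.58.1 (R 4.3.3, lmFit and eBayes, no covariate, two-sided). P-values were adjusted by Benjamini-Hochberg across every probe set that was kept. Calls required an adjusted p below 0.05 together with a 1.2-fold change, and unadjusted p-values under 0.05 were counted as a description. Single members were also tested by exact permutation over the 924 ways to divide 12 arrays into 6 and 6, two-sided, with a smallest p of 0.00216. The code was tested on simulated data.

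The platform annotation of 2016 gave 1 gene for 21789 probe sets, several for 1621 and none for 12146, and only the first kind was named. A RefSeq table held the Entrez identifiers of 21698 of them, and 0 symbols needed an update. No gene coordinates are given apart from the promoter windows, which came from RefSeq for GRCm38.p6. Plots were made in Python 3.11.15 (matplotlib 3.10.9).

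The members and gene lists were chosen with earlier results of these data known, so list counts and medians are descriptions beside the same over all named genes. By rule, all members were named, values of every array were given for members with an unadjusted p under 0.05 and for Hmgcs1, Dhcr7 and Srebf2, and of the other pathway genes those with the smallest p in each direction were named. The alternatives were the test named in the methods, the floor and filter, array centring, quantile normalization, limma's trend and robust options, weights per array, a block for the replicate number, averaging a gene's probe sets, adjustment over single-gene probe sets, each array left out in turn, and HC replicates 2 and 6 left out together.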

Additional observations from a re-analysis of the deposited data

Results flagged for a closer look

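In 4 of 64 sets of 6 arrays (32 members in each group), 1 array stood far from the rest, the gap to the next array, as a share of the group's whole range, exceeding Dixon's 95% critical value. Chance flags about 1 in 20 such sets. Mvd in HC had a ratio of 0.803, from HC replicate 2 at 8.57 against 8.38 on the next array. Ggps1 in CSD had a ratio of 0.752, from CSD replicate 8 at 10.16 against 10.29. Insig2 in CSD had 0.679, with CSD replicate 7 at 10.69 against 10.64, and Abcg1 in CSD had 0.657, with CSD replicate 7 at 9.90 against 9.76. None of these 4 genes had an unadjusted limma p under 0.05.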

How the results depend on the processing

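No member was called under any alternative. Over all named genes, the main 0 calls became 1 with quantile normalization, 14 with the variance trend and 21 with adjustment over single-gene probe sets. Members lower at an unadjusted p under 0.05 numbered 11 in the main setting, 7 to 14 with 1 array left out, 4 without HC replicates 2 and 6 together and 9 to 12 under the other alternatives run without a replicate block. The share of all named genes lower at that p moved too. It was 6.52% in the main setting, 4.87% to 8.1% with 1 array left out and 3.4% without HC replicates 2 and 6. The count of 12 came with 8.5% after median centring and 8.02% after quantile normalization, and that of 9 with 5.78% under array weights. Only the replicate numbers 2 and 6 were shared between groups, and the labels do not say what a shared number means. Same-numbered arrays did not deviate together (correlations of -0.21 and -0.035). These 2 pairs are too few to show whether they shared a cage, day or batch. The replicate block rests on the 4 arrays that share a number and leaves 1 residual degree of freedom. With it, 0 members were lower at that p, against 1.09% of all named genes. The median was -0.18 over the members and -0.08 over all named genes. Members with groups that did not overlap, 0 in the main setting, numbered 1 after median centring and 0 to 2 with 1 array left out (2 without HC replicate 5, 1 without HC replicate 3 or CSD replicate 6). In the main setting 0.935% of all named genes lay wholly below the HC range and 0.0793% above it. The shares under median centring and with 1 array left out are not given here.

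Signs turned only for members without an unadjusted p under 0.05. Median centring gave Pmvk -0.0024 and Insig2 -0.0092, and quantile normalization gave Fdps 0.0072. Array weights gave Fdps 0.017 and Hsd17b7 0.023. The replicate block gave Pmvk -0.12, Insig2 -0.047, Lrp1 -0.16 and Cyp46a1 -0.13. Without HC replicates 2 and 6 together, Fdps was at 0.031, Hsd17b7 at 0.053 and Abca1 at 0.013. With 1 array left out, Fdps ranged from -0.025 to 0.017, Pmvk from -0.016 to 0.063, Lrp1 from -0.011 to 0.043, Insig2 from -0.020 to 0.017, Hsd17b7 from -0.063 to 0.016 and Abca1 from -0.037 to 0.0094. The cause was not tested. Outside the replicate block, each value in this paragraph was smaller in size than the gene's SD over the 6 HC arrays. With the block, those of Lrp1 and Cyp46a1 were larger than it (SD 0.096 and 0.091). With 6 arrays per group, what can be told apart is limited.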
